A study of Saccharomyces cerevisiae with 12 samples.

Results

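Messenger RNA of budding yeast (Saccharomyces cerevisiae) was compared between cells given the lowest of 3 doxycycline doses, 0.01 µg/mL, and cells given none. The strain, TH_5234, is MATa and carries pRAP1::kanR-tetO7-TATA, which puts the RAP1 gene under a tetracycline-repressible promoter, together with the transactivator gene URA3::CMV-tTA and the mutant alleles his3-1, leu2-0 and met15-0. Every group shares this genotype, so the control is the tet-promoter strain without drug and not a strain with the native RAP1 promoter, and effects of the drug itself and of RAP1 repression cannot be told apart. The labels name 3 control samples and 3 samples at 0.01 µg/mL, 6 of the 12 in the series, all harvested in log phase as polyA RNA. Separate cultures are not mentioned for the replicates, so a q-value may measure technical spread. The authors' deposited table gives 1 level per gene and group, pooled over the samples, so no level carries an SD and no value per sample can be shown. Genes were taken where both levels were above 0 and the higher was at least 5 FPKM (fragments per kilobase of transcript, scaled to sequencing depth). This left 4982 of 5085 genes. Of the other 103, 22 stood at 0 in both groups, 7 stood at 0 in 1 group and 74 lay under the minimum. Just inside the minimum lay SPO23, at 5.16 FPKM in its higher group, and FMT1, at 5.29 FPKM. Just outside lay YSW1, at 4.89 FPKM, and DSF1, at 4.73 FPKM.

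Rap1 is an essential DNA-binding protein of yeast. It binds the promoters of most ribosomal protein genes and of many glycolytic genes, where it acts as an activator, and it binds telomere repeats and the silent mating cassettes, where it recruits the Sir proteins. In the tet-off system doxycycline releases the transactivator from the promoter and so lowers transcription of the gene behind it. Ribosomal protein genes, ribosome assembly genes and stress genes are known to move in opposite directions when yeast growth slows or when unfolded protein accumulates. The factors named most often in that response are Sfp1 and Fhl1 with Ifh1 on ribosomal protein genes, Msn2 and Msn4 on general stress genes, and Hsf1 on chaperone genes.

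RAP1 itself (YNL216W, chromosome XIV) stood at 31.7 FPKM in the control and 33.3 FPKM at 0.01 µg/mL. Its log2 fold change was 0.07 with q = 0.827 in the authors' deposited table, which does not show that the level was the same. The genes with mutant alleles in the labels differed in level, and the labels do not say which alleles remove the transcript. LEU2 and MET17, the gene mutated in met15-0, were listed at 0 in both groups. HIS3, which carries a mutant allele, stood at 267 and 211 FPKM with q = 0.615 in the authors' deposited table. URA3, the marker beside the transactivator, went from 174 to 116 FPKM, a log2 fold change of -0.59 with q = 0.00114 in the authors' deposited table. The part of this marker change in other results was not tested. Of the markers of MATa cells, all 7 were detected, with a summed level of 184509 FPKM in the control and 169170 FPKM at 0.01 µg/mL. The 6 markers of MATalpha cells summed to 420 and 476 FPKM, and MATALPHA1 itself stood at 2.84 and 3.19 FPKM. In a bulk sample, fewer cells with a transcript and less of that transcript per cell cannot be told apart.

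A gene is called below where q is under 0.05 in the authors' deposited table, and its log2 fold change is that of the 0.01 µg/mL level over the control level. Among the 4982 genes, 442 were called higher, which is 8.87%, and 776 were called lower, which is 15.6%. The called genes together make 24.4% of the genes and the other 3764 were not called. Of the called genes with at least 1.5-fold change, 279 were higher and 472 lower, but 352 and 355 when the change was measured from the median of all genes. Further out, 117 genes rose at least 2-fold against 95 that fell at least 2-fold, and 25 rose at least 4-fold against 2 that fell so far. The median gene called higher changed 1.60-fold and the median gene called lower was 1.56-fold lower. Over all 4982 genes the median log2 fold change was -0.08, with quartiles of -0.31 and 0.16. The smallest log2 fold changes that were called were 0.40 and -0.39.

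**Figure D1:**
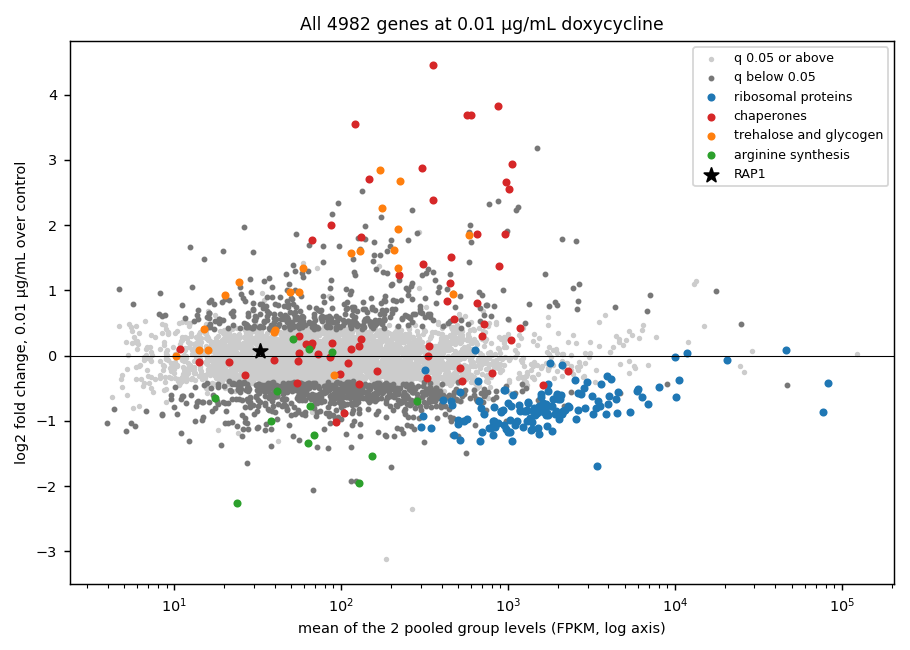
Each point is 1 of 4982 genes, with the mean of its 2 pooled levels (FPKM, log axis) against its log2 fold change at 0.01 µg/mL over control. Dark grey points have q below 0.05 in the authors' deposited table and colours mark gene groups. Chaperone genes reach 4.45, ribosomal protein genes lie mostly between 0 and -1.30 at high levels, and RAP1 (star) lies at 0.07.

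The 20 largest rises among called genes were led by genes of protein folding. BTN2 (chromosome VII), which sorts misfolded proteins, went from 31.0 to 676 FPKM, a log2 fold change of 4.45. HSP42, a small heat-shock protein, went from 116 to 1636 FPKM, and HSP104, the disaggregase, from 86.2 to 1116 FPKM. The inducible Hsp90 gene HSP82 went from 81.8 to 1050 FPKM. HSP78, the mitochondrial relative of Hsp104, went from 19.0 to 223 FPKM. HSP30, a stress protein of the plasma membrane, went from 294 to 2674 FPKM. The other 14 of the 20 included carbohydrate and antioxidant genes as well as chaperones, with log2 fold changes from 2.27 (GPH1) to 2.94 (SSA1). MBF1, a transcriptional coactivator, went from 395 to 1917 FPKM, and EGO4 from 283 to 1462 FPKM. The 20 largest falls came from many pathways. ARG3, ornithine carbamoyltransferase of arginine synthesis, went from 39.1 to 8.14 FPKM (log2 fold change -2.26). SPG4, a gene of stationary phase, went from 110 to 26.4 FPKM, and MPC3, a subunit of the mitochondrial pyruvate carrier, from 180 to 47.8 FPKM. MET6, methionine synthase, went from 194 to 51.3 FPKM, and AAH1, adenine deaminase, from 307 to 93.8 FPKM. The rest of the 20 include RPL29, HO, ALD6, FUI1, SSU1, GDH3, PCK1, RCK1, IZH1 and PHO89, with log2 fold changes from -1.70 (RPL29) to -1.30 (PHO89). The tRNA genes EMT5 (331 to 38.2 FPKM) and SUF5 (445 to 87.0 FPKM) had larger ratios in these polyA libraries and were not called.

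The 138 cytosolic ribosomal protein genes fell as a body but by a modest amount. Of the 81 genes of the large subunit, 64 were called lower and 0 higher, with a median log2 fold change of -0.77. Of the 57 of the small subunit, 49 were called lower and 0 higher, with a median of -0.85. Of the 138, 135 had a log2 fold change below 0. Their median level went from 1994 to 1140 FPKM. Their share of the summed FPKM of all genes went from 31.4% to 23.0%, a sum in which very short transcripts such as RPL41A and RPL39 weigh heavily. The largest fall was that of RPL29, from 5200 to 1601 FPKM (log2 fold change -1.70). RPL16A followed, from 971 to 391 FPKM, and RPS21B, from 1515 to 614 FPKM.

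Of the ribosomal protein genes, 25 were not called, and they ranged in log2 fold change from -0.81 to 0.08. RPL28 went from 1811 to 1036 FPKM, a log2 fold change of -0.81, with q = 0.0846 in the authors' deposited table. RPL32 went from 7684 to 4967 FPKM with q = 0.0607 in the authors' deposited table. Others had levels nearly alike in the pools: RPL39 stood at 45305 and 47864 FPKM, RPP1A at 10043 and 9948 FPKM, and RPP2B at 11642 and 11993 FPKM. RPP1A and RPP2B encode proteins of the acidic stalk of the large subunit. RPL4A and RPL4B, the copies of one large-subunit gene, had log2 fold changes of -0.14 and -0.11. Ribosomal protein genes with several coding exons were called lower in 80 of 90, with a median of -0.84. Those with 1 coding exon were called lower in 33 of 48, with a median of -0.75.

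Most yeast ribosomal proteins are encoded by a pair of near-identical genes, and how reads shared by the copies were assigned is not given in the sources used here. Pairs were formed here from gene names ending in A and B, the stalk genes RPP1 and RPP2 included. How alike the members of each pair are was not checked. Among the 59 pairs, 45 had both copies called lower, 12 had 1 copy called lower and 2 had none. The median difference between the copies' log2 fold changes was 0.17, without its sign, and 39 pairs lay less than 0.25 apart. In 7 pairs the copies lay more than 0.5 apart. RPS22A went from 5815 to 3154 FPKM while RPS22B stood at 621 and 656 FPKM, so that the less abundant copy did not follow. The pair of RPS21 has the reverse letter order: RPS21B fell (log2 fold change -1.30) and RPS21A, from 2858 to 2211 FPKM, was not called. RPS25B fell from 413 to 192 FPKM and RPS25A, at 1998 and 1485 FPKM, was not called. RPS28B fell from 8658 to 5188 FPKM while RPS28A stood at 21025 and 20074 FPKM. The stalk genes RPP1B and RPP2A fell (log2 fold changes -0.81 and -0.67), unlike RPP1A and RPP2B. In the RPL16 pair both copies were called lower, at -1.31 for RPL16A and -0.67 for RPL16B. The difference between copies was not tested, since no level per sample was given.

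**Figure D2:**
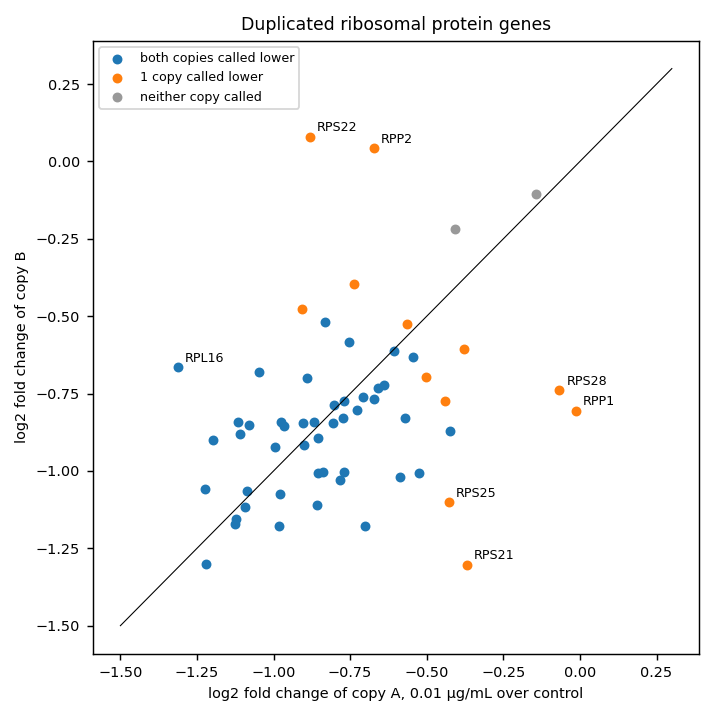
Each point is 1 of 59 duplicated ribosomal protein gene pairs, with the log2 fold change of copy A on the horizontal axis and of copy B on the vertical axis, both for 0.01 µg/mL over control. Colours show how many copies were called lower, the line marks equal change, and the 7 pairs more than 0.5 apart are named.

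Rap1 sites were searched for upstream of these genes as the letters ACACCC, any 2 bases and then ACA, on either strand, in the 500 bases before the start codon. This is a strict form of the site and most ribosomal protein promoters did not hold it. It was found in 11 of 81 promoters of the large subunit and 8 of 57 of the small subunit, against 48 of 4934 promoters over all genes with a window, which is 0.973%. Of the 48 genes, 29 were called lower, which is 60.4%, against 15.3% of genes without a match. Of those 29, 10 are large-subunit and 8 small-subunit ribosomal protein genes, and within these lists the genes without a match were mostly called lower too, in 54 of 70 and 41 of 49. The large-subunit median was -0.77 with and without a match. The promoter of RPL7A, which went from 726 to 364 FPKM, is shown because its fall was the largest among large-subunit genes with a match. The sequence is from the R64 RefSeq assembly, chromosome VII, bases 366165 to 366324, minus strand, 328 to 169 bases before the start codon, with the match in capitals.
RPL7A: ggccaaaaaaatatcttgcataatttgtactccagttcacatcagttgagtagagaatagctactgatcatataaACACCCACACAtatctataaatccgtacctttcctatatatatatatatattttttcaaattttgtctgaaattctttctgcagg

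Genes that build ribosomes were called lower as well. Of 68 genes of large-subunit assembly, 51 were called lower and 0 higher, with a median log2 fold change of -0.59. Of 57 genes of the small-subunit processome and its later steps, 36 were called lower and 0 higher, with a median of -0.50. DHR2, an RNA helicase, fell from 72.4 to 30.9 FPKM (log2 fold change -1.23), and DBP2, a DEAD-box helicase, from 863 to 412 FPKM. The ribosomal RNA-binding protein gene NSR1 fell from 642 to 276 FPKM. Of 32 genes of snoRNP cores and rRNA modification, 13 were called lower, with NOP1, the methyltransferase, going from 1855 to 1161 FPKM. Of 37 genes of RNA polymerases I and III and their factors, 15 were called lower. Among these, RPA190, the largest subunit of polymerase I, went from 159 to 103 FPKM, and RRN11, an initiation factor of polymerase I, from 48.3 to 21.9 FPKM. No gene of these lists was called higher.

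Of 43 translation factor genes, 7 were called lower, among them CDC33, the cap-binding protein, from 1317 to 886 FPKM. Of 19 cytosolic aminoacyl-tRNA synthetase genes, 3 were called lower, led by KRS1 from 620 to 318 FPKM. These shares are near the 15.6% called lower over all genes. Yet 42 of the 43 and 17 of the 19 lay below 0, against 59.1% of all genes. Their medians were -0.31 and -0.37, against -0.08 over all genes. Of 68 mitochondrial ribosomal protein genes, 6 were called lower and 1 higher. Of 18 regulators of the ribosomal genes, 1 was called higher (5.56%) and 2 lower (11.1%), against 8.87% and 15.6% over all genes. The largest change among them was the rise of LST8, from 107 to 196 FPKM (log2 fold change 0.88). FHL1, a forkhead factor of ribosomal protein promoters, went from 29.8 to 22.5 FPKM with q = 0.0413 in the authors' deposited table. Its partner IFH1 went from 51.4 to 40.4 FPKM with q = 0.141 in the authors' deposited table. SFP1 stood at 49.5 and 48.0 FPKM. TOD6, a repressor of ribosome assembly genes, fell from 126 to 89.8 FPKM.

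Assembly genes share 2 known upstream elements, PAC (letters GATGAG) and RRPE (letters AAAATTTT). PAC was found within 500 bases in 62 of 68 promoters of large-subunit assembly and 51 of 57 of small-subunit assembly, against 28.3% of all promoters, a high share because the motif is short. RRPE was found in 56 of 68 and 40 of 57, against 13.7%. The 1394 genes with PAC were called lower in 24.5%, against 12.3% of those without. Within the assembly lists, 46 of 62 large-subunit genes with PAC were called lower and 5 of 6 without, and 32 of 51 small-subunit genes with PAC and 4 of 6 without. DHR2 is shown because it had the largest fall among small-subunit assembly genes with PAC. Its segment lies on chromosome XI of the R64 RefSeq assembly, bases 288625 to 288784, plus strand, 220 to 61 bases before the start codon, and the capitals mark 3 overlapping PAC matches.
DHR2: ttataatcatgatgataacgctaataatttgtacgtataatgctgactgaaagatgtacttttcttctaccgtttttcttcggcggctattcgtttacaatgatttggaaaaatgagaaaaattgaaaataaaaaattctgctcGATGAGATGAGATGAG

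Calls among protein-folding genes differed by chaperone system and compartment. Of the 7 genes of disaggregation, small heat-shock proteins and aggregate sorting, 7 were called higher, with a median log2 fold change of 2.01. Beside BTN2, HSP42 and HSP104, the sorting factor CUR1 went from 34.7 to 139 FPKM and the small heat-shock gene HSP26 from 494 to 1285 FPKM. HSP31, a glyoxalase-type chaperone, went from 170 to 450 FPKM. HSP12 changed least, from 601 to 840 FPKM. HSP32 and HSP33, close copies of HSP31, lay under the minimum level. With no minimum the median of the list was 1.40. Together these 7 genes made 0.0785% of summed FPKM in the control and 0.342% at 0.01 µg/mL.

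In the Hsp70 system, 5 of 11 genes were called higher and 0 lower. SSA1, a constitutive cytosolic Hsp70, went from 244 to 1866 FPKM and its close copy SSA2 from 267 to 1680 FPKM, a pair between which reads can be split. SSA4, the heat-inducible copy, went from 73.5 to 541 FPKM, and the Hsp110 gene SSE2 from 38.9 to 255 FPKM. FES1, a nucleotide exchange factor, went from 281 to 1020 FPKM. SSA3, the copy known for stationary phase, stood at 62.2 and 69.2 FPKM. The ribosome-bound Hsp70 genes SSB1 (1885 and 1378 FPKM) and SSB2 (2494 and 2107 FPKM) were not called.

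In the Hsp90 system, 6 of 14 genes were called higher and 2 lower. The constitutive HSC82, a close copy of HSP82, went from 415 to 1514 FPKM. STI1, which links Hsp70 to Hsp90, went from 114 to 597 FPKM. The cyclophilin CPR6 and the activator AHA1 rose as well (log2 fold changes 1.51 and 1.23). PPT1, the Hsp90 phosphatase, fell from 136 to 73.7 FPKM, and CNS1, another co-chaperone, from 146 to 109 FPKM. Of the 12 cytosolic J-domain genes, which encode partners of Hsp70, 3 were called higher and 1 lower. SIS1 went from 295 to 1741 FPKM, APJ1 from 30.6 to 104 FPKM and YDJ1 from 475 to 826 FPKM, while JJJ3 fell from 124 to 61.6 FPKM.

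Among 16 mitochondrial chaperone and protease genes, 4 were called higher and 0 lower. Beside HSP78, the J-protein gene MDJ1 went from 57.6 to 204 FPKM, the chaperonin gene HSP60 from 284 to 612 FPKM and the Hsp70 gene SSC1 from 311 to 555 FPKM. In the endoplasmic reticulum 1 of 18 genes was called, KAR2, the Hsp70 of that compartment, which rose from 316 to 615 FPKM. The unfolded-protein response gene HAC1 and the disulfide isomerase gene PDI1 were not called. Of the 9 genes of the cytosolic chaperonin CCT and the 6 of prefoldin, which fold actin and tubulin among others, 0 were called, with medians of -0.11 and -0.09. The mRNA of HSF1, the heat-shock factor, stood at 50.2 and 65.5 FPKM with q = 0.107 in the authors' deposited table.

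**Figure D3:**
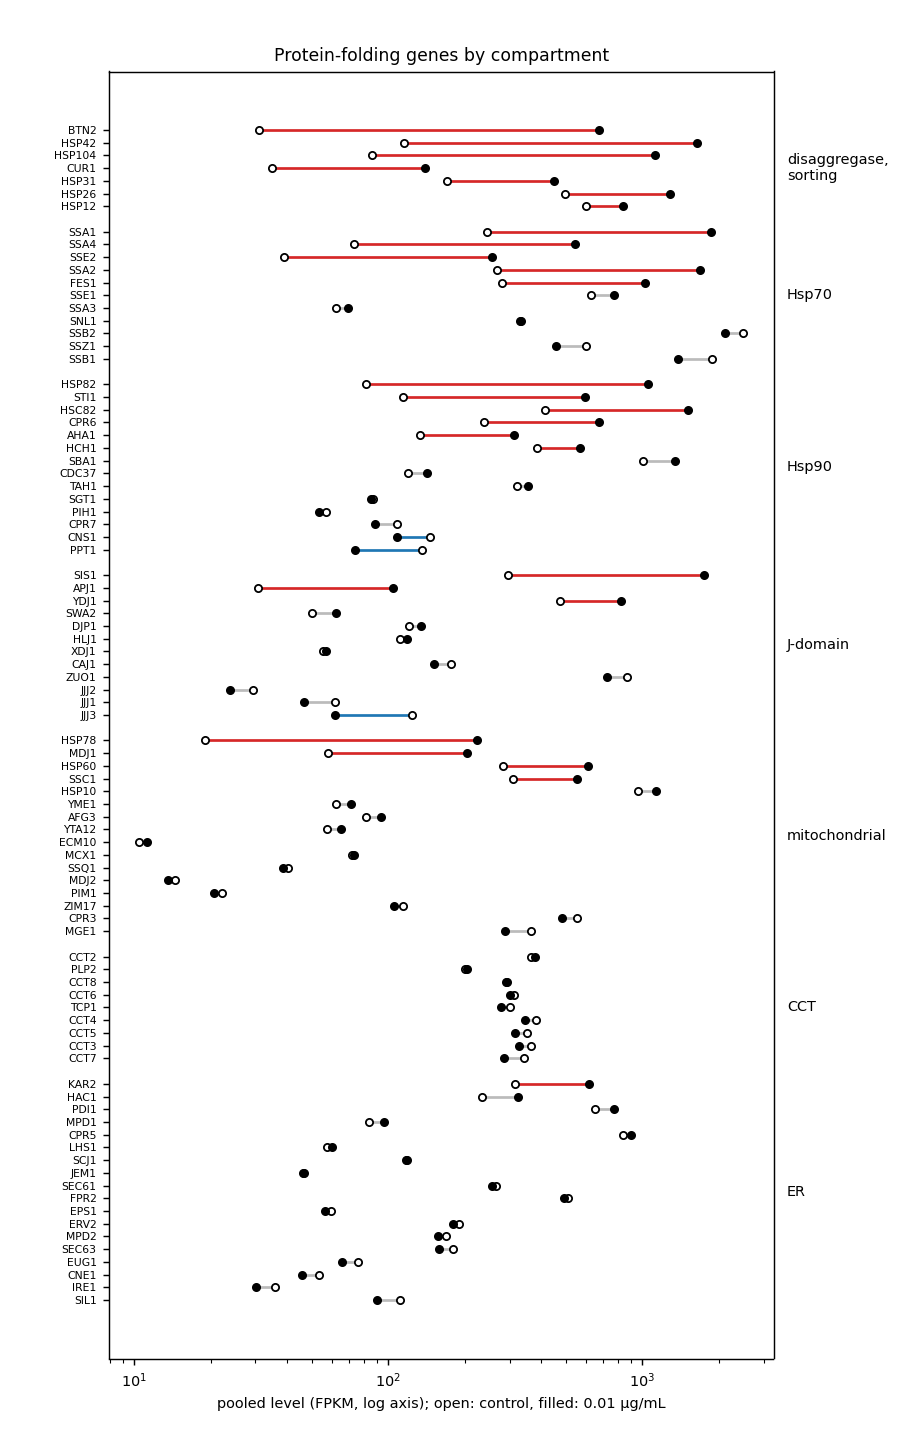
Pooled levels (FPKM, log axis) of protein-folding genes in 7 lists, with open points for the control and filled points for 0.01 µg/mL. Red lines mark genes called higher, blue lines genes called lower and grey lines genes not called. The red lines span the disaggregase, Hsp70, Hsp90, J-domain and mitochondrial lists, while no CCT gene is coloured and KAR2 is the only coloured gene of the endoplasmic reticulum.

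The heat-shock element was searched for as 3 alternating units of GAA and TTC, each 2 bases from the next and with no mismatch, on either strand. It was found in 75 of 4934 promoters, which is 1.52%, and in 3 of 7 of the disaggregation list, 4 of 11 of the Hsp70 list and 2 of 14 of the Hsp90 list. Of the 75 genes, 24 were called higher, which is 32.0%, against 8.54% of genes without a match. Another 14 of the 75 were called lower. Within the Hsp70 list 3 of 4 genes with the element were called higher and 2 of 7 without. These counts were 2 of 2 and 4 of 12 in the Hsp90 list and 3 of 3 and 4 of 4 in the disaggregation list. The promoters of BTN2 and STI1 are shown because each had the largest rise among called genes with a match in its list. BTN2 lies on chromosome VII, bases 772041 to 772200, plus strand, 413 to 254 bases before the start codon. STI1 lies on chromosome XV, bases 380763 to 380922, plus strand, 290 to 131 bases before the start codon. Both are from the R64 RefSeq assembly and capitals mark the matches, 2 in each, which overlap in BTN2.
BTN2: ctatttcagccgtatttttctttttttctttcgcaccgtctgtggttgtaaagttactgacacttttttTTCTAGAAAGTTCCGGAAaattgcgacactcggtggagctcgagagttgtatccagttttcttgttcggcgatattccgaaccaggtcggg
STI1: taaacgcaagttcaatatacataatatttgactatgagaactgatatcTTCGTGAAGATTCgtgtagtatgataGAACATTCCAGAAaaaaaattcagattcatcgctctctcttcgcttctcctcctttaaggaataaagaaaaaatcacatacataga

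Reserve carbohydrate genes rose with the chaperones. Of 10 genes of trehalose metabolism, 7 were called higher and 0 lower, with a median log2 fold change of 1.16. TPS1, the synthase, and TPS2, the phosphatase of the last step, went from 255 to 913 FPKM and from 90.9 to 349 FPKM. TSL1, a regulatory subunit, went from 41.8 to 302 FPKM, while TPS3, the other regulatory subunit, went from 37.6 to 74.1 FPKM. NTH1, neutral trehalase, which breaks trehalose down, rose too, from 124 to 314 FPKM, so synthesis and breakdown genes moved together. ATH1 and NTH2, the other trehalase genes, had log2 fold changes of 0.40 and 0.39 and were not called. Of 12 glycogen genes, 8 were called higher and 0 lower, with a median of 1.05. GSY2, the main glycogen synthase, went from 101 to 311 FPKM, GLC3, the branching enzyme, from 64.7 to 196 FPKM, and GPH1, glycogen phosphorylase, from 60.1 to 290 FPKM. PGM2, phosphoglucomutase, which feeds both stores, went from 61.3 to 392 FPKM.

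Of 44 general stress genes known as targets of Msn2 and Msn4, 34 were called higher and 2 lower, with a median log2 fold change of 1.00. CTT1, cytosolic catalase, went from 31.5 to 160 FPKM. SOL4, of the pentose phosphate pathway, went from 39.5 to 227 FPKM, and GAD1, glutamate decarboxylase, from 64.4 to 280 FPKM. CYC7, the minor form of cytochrome c, went from 92.9 to 438 FPKM. PNC1, nicotinamidase, went from 393 to 1847 FPKM. The 2 that fell were MPC3 and the kinase gene RCK1, which went from 27.6 to 10.7 FPKM. The mRNAs of the factors were not called: MSN2 stood at 50.1 and 58.0 FPKM and MSN4 at 112 and 141 FPKM.

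The stress element AGGGG, counted where a promoter held at least 2 copies on either strand, was found in 386 of 4934 promoters, which is 7.82%. It was found in 8 of 10 trehalose genes, 7 of 12 glycogen genes and 25 of 44 general stress genes. Of the 386 genes, 123 were called higher, which is 31.9%, against 6.95% of the other genes. Within the lists, 7 of 8 trehalose genes with the element were called higher and 0 of 2 without it. In the glycogen list these counts were 5 of 7 and 3 of 5, and in the general stress list 21 of 25 and 13 of 19. In the disaggregation list all were called, 4 with the element and 3 without.

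Of 8 genes of the plasma membrane proton pump and its stress proteins, 4 were called higher: HSP30, its relative YRO2 (415 to 1562 FPKM), PMP2 and PMP3. Of 34 genes of the cell wall integrity pathway and wall proteins, 15 were called higher and 1 lower. SLT2, the kinase of that pathway, went from 207 to 502 FPKM, and the wall protein gene SED1 from 4850 to 9275 FPKM, while UTR2, a chitin transglycosylase, fell from 329 to 144 FPKM. Of 40 genes of peroxide, thioredoxin and glutathione defence, 10 were called higher and 2 lower, with AHP1, a peroxiredoxin, going from 1701 to 3650 FPKM. Of 20 genes of the osmotic response, 2 were called higher and 3 lower, near the shares over all genes, 8.87% and 15.6%. The 3 were ENA1, ENA2 and ENA5, near-identical sodium pump genes whose reads can be split between the copies. Of 17 stationary-phase and starvation genes, 1 was called higher and 4 lower, with SPG1 going from 96.0 to 53.4 FPKM. The stationary-phase markers SNZ1 and GRE1 were not called.

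Of 29 genes of Ras, protein kinase A and stress regulators, 10 were called higher and 4 lower, so both arms of the pathway appear among the calls. TPK3, a catalytic subunit of the kinase, fell from 61.2 to 42.4 FPKM. RAS2 rose from 223 to 376 FPKM and RAS1 fell from 274 to 160 FPKM. CYR1, adenylate cyclase, rose (log2 fold change 0.82), as did PDE1, which degrades cyclic AMP (0.92). YAK1, a kinase that opposes growth, went from 54.2 to 121 FPKM, and HAP4, an activator of respiratory genes, from 128 to 274 FPKM.

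Of 41 proteasome genes, which encode the main protease of the cytosol and nucleus, 4 were called higher and 0 lower. The share called higher, 9.76%, is near the 8.87% over all genes. Of the 41, 40 lay above 0 and the median log2 fold change was 0.37, just under the smallest called rise of 0.40. The 4 were RPN4, the transcription factor of proteasome genes (126 to 219 FPKM), RPN1, UMP1 and ECM29. The element GGTGGCAAA was found in 28 of 41 of these promoters and in 1.76% of all promoters. Of 24 ubiquitin and misfolded-protein ligase genes, 7 were called higher, with UBI4, polyubiquitin, going from 256 to 504 FPKM. Of 36 autophagy genes, 9 were called higher and 0 lower. ATG8, which coats the autophagosome, went from 182 to 429 FPKM, and ATG1, the starting kinase, from 11.8 to 21.3 FPKM.

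Among the amino acid lists, arginine synthesis had the lowest median. All 10 enzyme and transporter genes of the 13 arginine genes were called lower, with a median log2 fold change of -0.77 over the 13. ARG1, argininosuccinate synthetase, went from 205 to 53.1 FPKM, and ARG4, argininosuccinate lyase, from 228 to 78.6 FPKM. The regulator genes ARG80, ARG81 and ARG82 were not called, with log2 fold changes of 0.06, 0.10 and 0.26. Of 9 lysine genes, 7 were called lower and 0 higher, led by LYS20 from 282 to 173 FPKM. Of 12 genes of leucine, isoleucine and valine synthesis, 6 were called lower, with ILV3 going from 922 to 497 FPKM. Of 16 aromatic amino acid genes, 7 were called lower, and of 6 histidine genes, 2, HIS1 and HIS4. Of 15 genes of the homoserine, serine and glycine family, 8 were called lower, with GLY1, threonine aldolase, going from 230.5 to 102 FPKM.

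Sulfur amino acid genes split. Of 19 genes of the methionine and S-adenosylmethionine cycle, 9 were called lower and 2 higher. Beside MET6, the S-adenosylmethionine synthetase genes SAM1 and SAM2 fell (log2 fold changes -0.90 and -1.05). ADI1, of methionine salvage, rose from 157 to 247 FPKM. Of 22 sulfate assimilation and sulfite export genes 5 were called lower, led by SSU1, the sulfite pump, from 104 to 39.4 FPKM. These genes were read in a met15-0 strain, whose MET17 was listed at 0. Of 19 amino acid permease genes, 8 were called lower and 1 higher. GAP1, the general permease, went from 150 to 81.6 FPKM and AGP1 from 182 to 78.0 FPKM.

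GCN4, the activator of amino acid genes, stood at 1686 and 1745 FPKM, with q = 0.938 in the authors' deposited table. It is known to be controlled mainly in its translation. Its site, TGACTCA on either strand, was found in 9 of 13 arginine promoters and 4.30% of all promoters. All 9 of these arginine genes were called lower, and 1 of the 4 without it. In the lysine list 2 of 3 genes with the site were called lower and 5 of 6 without, and in the branched-chain list 3 of 8 with and 3 of 4 without. Of the 212 genes with the site, 55 were called lower, which is 25.9%, against 15.3% of those without. ARG3 is shown as the largest fall in the arginine list with a match. Its segment lies on chromosome X of the R64 RefSeq assembly, bases 268408 to 268567, plus strand, 391 to 232 bases before the start codon, with the match in capitals.
ARG3: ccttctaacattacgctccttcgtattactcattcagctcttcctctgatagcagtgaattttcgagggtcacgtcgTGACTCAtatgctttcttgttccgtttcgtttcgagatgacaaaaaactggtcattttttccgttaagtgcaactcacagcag

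Genes of nucleotide synthesis that were called were lower, apart from PNC1 of NAD salvage. Of 13 genes of de novo purine synthesis, 7 were called lower and 0 higher, with a median log2 fold change of -0.60. ADE17 and ADE16 encode forms of the same enzyme of the last steps to inosine monophosphate. ADE17 fell from 293 to 125 FPKM, while ADE16 stood at 232 and 270 FPKM. BAS1, the activator of the pathway, fell from 37.0 to 22.0 FPKM. Of 16 genes of guanine nucleotide synthesis and purine salvage, 10 were called lower and 0 higher. Beside AAH1 they included FCY2, the purine and cytosine permease (605 to 302 FPKM), and HPT1, which salvages hypoxanthine and guanine (944 to 532 FPKM). Of 16 pyrimidine genes, 7 were called lower, with FUI1, the uridine permease, going from 122 to 45.8 FPKM and URA7, CTP synthetase, from 295 to 137 FPKM. Of 16 one-carbon genes, 6 were called lower, among them SHM2, cytosolic serine hydroxymethyltransferase, from 703 to 300 FPKM. Of 15 genes of NAD synthesis and salvage, 5 were called lower and 1 higher. The one was PNC1, and the 5 included BNA1, BNA4 and BNA5 of synthesis from tryptophan.

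The core of the Bas1 site, TGACTC, lies inside the Gcn4 site and was therefore also counted in each Gcn4 match. It was found in 10 of 13 purine promoters and in 13.1% of all promoters. Of those 10 genes, 6 were called lower. ADE17 is shown as the largest fall in the purine list, on chromosome XIII of the R64 RefSeq assembly, bases 509375 to 509534, minus strand, 254 to 95 bases before the start codon, with the match in capitals.
ADE17: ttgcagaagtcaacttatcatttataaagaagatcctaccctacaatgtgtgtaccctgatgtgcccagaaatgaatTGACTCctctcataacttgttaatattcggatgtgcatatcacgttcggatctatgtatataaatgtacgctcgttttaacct

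Of 14 genes of fatty acid synthesis and desaturation, 7 were called lower and 0 higher, with a median log2 fold change of -0.51. FAS1 and FAS2, the fatty acid synthase subunits, went from 244 to 128 FPKM and from 406 to 239 FPKM, and OLE1, the desaturase, from 2742 to 1602 FPKM. Of 20 inositol and phospholipid genes, 9 were called lower and 0 higher. INO2, the activator of these genes, fell from 32.4 to 15.3 FPKM, and CHO2 and OPI3, which methylate phosphatidylethanolamine, fell too (log2 fold changes -1.03 and -0.84). Of 27 ergosterol genes 5 were called lower (18.5%). Of 22 sphingolipid genes, 3 were called higher and 3 lower (13.6% each way). The shares called lower are near the 15.6% over all genes, of which 8.87% were called higher. The ceramidase genes YPC1 and YDC1 rose (log2 fold changes 1.38 and 0.70), while TSC10 and LAG1, of ceramide synthesis, fell (-0.67 and -0.50).

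No glycolytic gene of the lists was called lower. Rap1 is known to act at many glycolytic promoters as well as at ribosomal protein genes. Of 12 genes of hexose phosphorylation and upper glycolysis, 5 were called higher and 0 lower. HXK1 went from 248 to 922 FPKM and GLK1, glucokinase, from 275 to 920 FPKM. HXK2, the main hexokinase in glucose, stood at 489 and 582 FPKM and was not called. Of 11 lower glycolytic genes, 3 were called higher: TDH1, PYK2 and GPM2, the minor or stress forms. The abundant forms were not called, with TDH3 at 12545 and 17164 FPKM, ENO2 at 5501 and 6644 FPKM and CDC19 at 3334 and 3702 FPKM. GCR1, the activator of glycolytic genes that works beside Rap1, rose from 57.0 to 77.4 FPKM, with q = 0.0370 in the authors' deposited table.

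Beyond glycolysis the carbon genes moved both ways. Of 25 genes of the TCA cycle and its feeding steps, 8 were called higher and 5 lower. CIT1, mitochondrial citrate synthase, went from 189 to 454 FPKM, and SDH1, of succinate dehydrogenase, from 39.8 to 66.9 FPKM, while the pyruvate carboxylase genes PYC1 and PYC2 fell. Of 39 nuclear genes of oxidative phosphorylation, 6 were called higher and 1 lower. Of 16 genes of ethanol and acetate metabolism, 4 were called lower and 1 higher. ALD6, the main cytosolic acetaldehyde dehydrogenase, went from 831 to 294 FPKM, and ACS2, acetyl-CoA synthetase, from 190 to 128 FPKM. Of 24 genes of gluconeogenesis, the glyoxylate cycle and fatty acid oxidation, 2 were called higher and 4 lower. These shares are near the 8.87% and 15.6% over all genes. PCK1 was among the 4 called lower (54.8 to 20.9 FPKM). Of 20 hexose transporter and sensor genes, 5 were called higher and 1 lower. HXT1 and HXT3, low-affinity transporters, rose (log2 fold changes 0.84 and 0.82), and HXT2, of higher affinity, fell (-0.58).

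Mating lists differed in their counts. Of 21 genes of mating and cell fusion, 13 were called lower and 0 higher, with a median log2 fold change of -0.47. FUS1 went from 65.4 to 34.9 FPKM and AGA1, an agglutinin, from 388 to 201 FPKM. HO, the endonuclease of mating-type switching, went from 41.1 to 13.2 FPKM. Of the 7 MATa-specific genes 4 were called lower, with BAR1, which degrades alpha factor, going from 309 to 175 FPKM, while MFA1 stood at 122401 and 124122 FPKM. Of 21 pheromone pathway genes, 2 were called lower, STE12, its transcription factor, and SST2, its brake. Among 9 genes of the silent cassettes and alpha cells, whose median was 0.06, 1 was called, MF(ALPHA)1, which fell from 27.2 to 13.3 FPKM. MATALPHA2 stood at 100 and 105 FPKM and was not called, and the locus its reads came from is not given.

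Of 15 partners of Rap1 at telomeres and silent loci, 4 were called lower and 1 higher. SIR2, the histone deacetylase, fell from 34.9 to 18.0 FPKM, while SIR3 and SIR4 were not called (log2 fold changes 0.11 and -0.20). Of 8 general regulatory factors, 3 were called lower and 1 higher. TBF1 fell from 35.3 to 21.5 FPKM and ABF1 from 20.6 to 13.5 FPKM, MCM1 rose from 155 to 208 FPKM, and REB1, at 38.3 and 29.2 FPKM, had q = 0.0524 in the authors' deposited table. Genes within 10 kb of a chromosome end, 60 in all, were called higher in 7 (11.7%) and lower in 4 (6.67%), with a median of -0.01. Over all genes 8.87% were called higher and 15.6% lower. Of 11 subtelomeric COS genes, 1 was called each way (9.09%), and 26 seripauperin, DAN and TIR genes had 2 called higher and 7 lower. Members of these last families are near copies of each other, and their reads may be split.

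Most cell-cycle genes that were called were lower. Over all genes, calls also leaned lower, with 15.6% called lower and 8.87% higher. Of 22 replication genes, 5 were called lower and 0 higher. The 5 were CDC6, the licensing factor (15.3 to 6.73 FPKM), and the helicase genes MCM2, MCM3, MCM6 and MCM7. Of 15 genes of G1 cyclins and their regulators, 5 were called lower, with CLB6 going from 19.7 to 10.2 FPKM. Of 19 mitotic cyclin genes and regulators, 5 were called lower, among them CLB1 and CLB2. Of 12 daughter-cell and separation genes, 4 were called lower and 2 higher. Among 20 septin and bud site genes, 1 was called each way. Lists in which 0 members were called were CCT, prefoldin, the 11 histone genes, the 17 vacuolar proton pump genes and the 19 COPI and COPII coat genes.

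Over all 89 lists, 60 had a median below 0. At least 50% of members were called higher in 5 lists, which were disaggregation, trehalose, glycogen, general stress genes and the proton pump with its stress proteins. The transcripts of the mitochondrial genome, which are not among the 89 lists, had 2 of 4 called higher. At least 50% were called lower in 13 lists. These were both ribosomal protein lists, both assembly lists, arginine, lysine, branched-chain and homoserine family synthesis, purine synthesis, guanine nucleotides with salvage, fatty acid synthesis, mating with cell fusion, and MATa genes. Calls went both ways in 33 lists. Of the 3096 genes in no list, 255 were called higher and 289 lower.

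**Figure D4:**
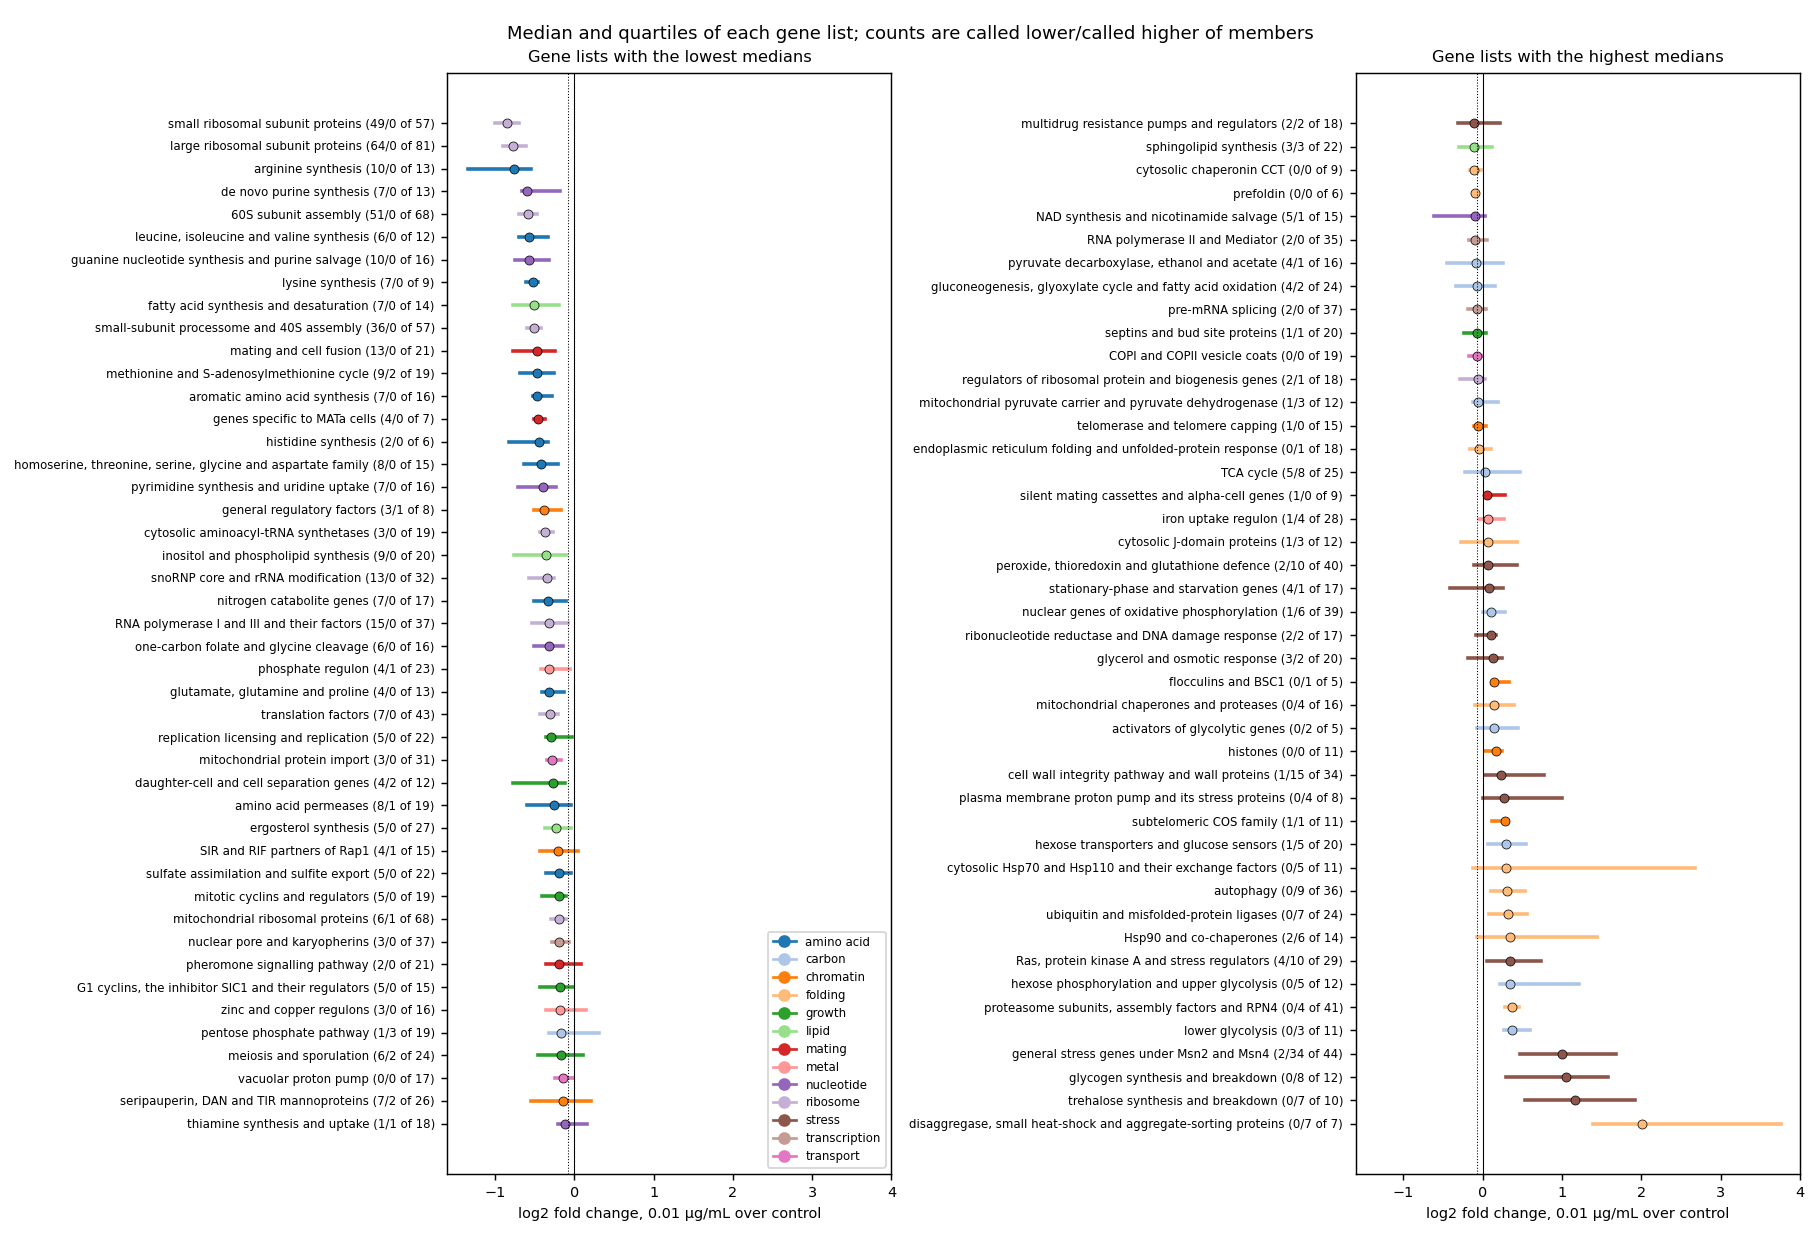
Median (point) and quartiles (bar) of the log2 fold change at 0.01 µg/mL over control in each gene list, with the members called lower, then called higher, then their number in brackets. Colours mark classes of lists, the solid line marks 0 and the dotted line the median of all genes, -0.08. Ribosomal protein genes and arginine synthesis lie lowest, and the disaggregation, trehalose, glycogen and general stress lists stand above 1.00 or at it.

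Whether a process had already moved at 0.01 µg/mL can be read beside the higher doses. The 3 comparisons share the same 3 control samples and were scaled separately, so the values stand side by side and no difference between doses was tested. Over all genes, 38.2% were called at 0.1 µg/mL and 46.6% at 0.5 µg/mL, against 24.4% at 0.01 µg/mL. By direction, 17.7% were called higher and 20.5% lower at 0.1 µg/mL, and 7.52% higher and 39.1% lower at 0.5 µg/mL. The median log2 fold change of all genes was -0.03 at 0.1 µg/mL and -0.30 at 0.5 µg/mL. RAP1 had log2 fold changes of 0.07, -0.02 and -0.52 at the 3 doses, with q = 0.827, 0.935 and 0.00764 in the authors' deposited tables. RAP1 was thus called lower only in the table of the highest dose among these 3.

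In several lists most members were called at the lowest dose and at the higher ones. Small-subunit ribosomal protein genes were called lower in 49, 53 and 53 of 57, with medians of -0.85, -1.03 and -1.17. General stress genes were called higher in 34, 34 and 28 of 44, with medians of 1.00, 1.07 and 0.82. Glycogen genes were called higher in 8, 8 and 7 of 12. Arginine genes were called lower in 10 of 13 at each dose, with medians of -0.77, -0.85 and -1.20. Disaggregation genes were called higher in 7, 6 and 6 of 7.

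Other lists had more calls at another dose than at 0.01 µg/mL. Proteasome genes were called higher in 4, 34 and 8 of 41, with medians of 0.37, 0.63 and 0.34. Autophagy genes were called higher in 9, 20 and 6 of 36. Aminoacyl-tRNA synthetase genes were called lower in 3, 5 and 16 of 19. Translation factor genes were called lower in 7, 10 and 27 of 43. Nuclear pore and karyopherin genes were called lower in 3, 4 and 23 of 37, and splicing genes in 2, 5 and 18 of 37. Over all genes 15.6%, 20.5% and 39.1% were called lower at the 3 doses, and 8.87%, 17.7% and 7.52% higher. The part of that general shift in the counts of these lists was not tested. The proteasome medians at the lowest and highest doses lie close to each other, but the medians of all genes at those doses were -0.08 and -0.30. At 0.01 µg/mL the proteasome median lay just under the smallest called rise, 0.40.

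**Figure D5:**
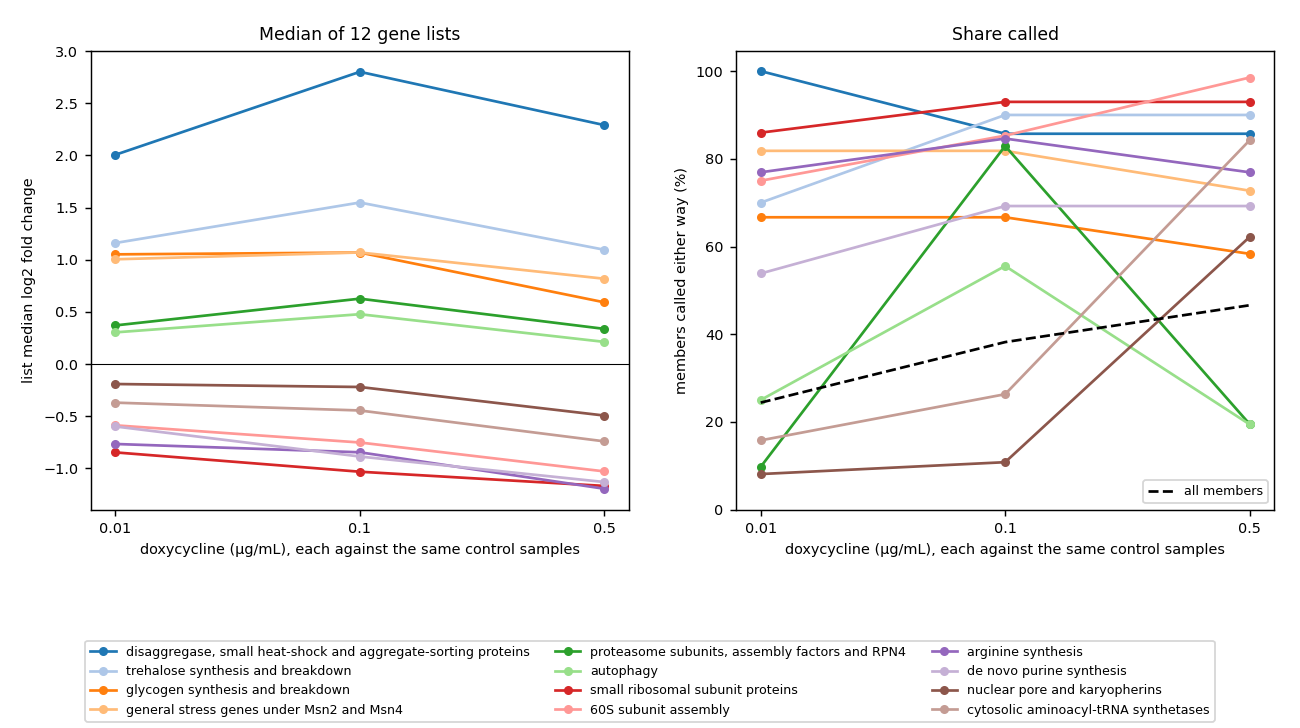
Left, the median log2 fold change over control of 12 gene lists at 0.01, 0.1 and 0.5 µg/mL doxycycline, spaced evenly. Right, the share of members called either way (%), with a dashed line for all genes, which runs from 24.4% to 46.6%. Every dose is set against the same control samples, and ribosomal protein, assembly, arginine and stress lists already lie far from 0 at the lowest dose.

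Calls also varied with the level of a gene. Genes were split by mean level into 5 bins of like size. In the bin of highest level 23.5% were called lower, against 12.3% in the lowest. Without the ribosomal protein genes these shares were 15.1% and 12.5%. With the ribosomal protein genes kept, 9.73% of genes were called higher in the highest bin and 7.82% in the lowest. In 5 such bins by coding length, 12.3% were called lower in the shortest and 12.7% in the longest, and 19.4%, 17.0% and 17.3% in the 3 between.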

How the data were processed

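The submitters' processing notes list Cuffdiff, Bowtie2, FastQC and the build R64. Tool versions and strand handling were not stated there. The labels' protocols name a Promega total RNA kit, polyA RNA and barcoded TruSeq libraries. The authors' deposited tables, 3 in all, give pooled levels per group. The unit of the deposited levels, FPKM, was inferred from Cuffdiff-style column names. The headers call the control WT where the title line says Control. The deposited log2 fold changes were recomputed from the levels without a pseudocount. The deposited q-values were used as the authors gave them, without unadjusted p-values. Depth is unknown, so no counting interval is given. Emptied lines, 3 per table, were not analysed here, and 2 symbols turned into dates were restored by gene ID. Of 5085 IDs, 5017 matched the R64 RefSeq annotation.

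The members and the 89 gene lists were chosen with earlier results of these data known, so counts within a list describe it and no list was tested. After the data were seen, 6 listed genes were removed as mistakes. Named genes were the 20 largest called changes each way, up to 6 called genes per list with uncalled contrasts, regulators, strain markers and duplicated copies. Promoter windows of 500 bases were read from R64 with Python 3.11.15, and the search was tested on simulated sequences. Alternatives were other minimum levels, q and fold thresholds, a pseudocount of 1, centring and a 250-base window.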

Additional observations from a re-analysis of the deposited data

How the results depend on the processing

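No paired analysis was possible because each group has only 1 pooled level, and for the same reason no sample could be left out. Readjusting over the members needs p-values that were not used here. Against 1218 calls (442 higher, 776 lower), no minimum gave 1221 (442, 779) and a minimum of 20 FPKM gave 1164 (420, 744). A q below 0.01 gave 790 (302, 488), a change of at least 1.5-fold gave 751 (279, 472) and of at least 2-fold 212 (117, 95). Measuring 1.5-fold relative to the overall median gave 707 (352, 355). The share of calls that were higher was 36.3%, 55.2% at 2-fold and 49.8% from the median. With q below 0.01, at least 50% of members were called lower in 5 lists in place of 13 and called higher in 4 in place of 5, and 40 lists had a call count moved by over 1.5 times. RAP1 stood at 0.15 from the median and 0.07 with the pseudocount. Measured from the median of all genes, 7 small list medians turned positive: regulators of ribosomal genes (0.021), endoplasmic reticulum folding (0.028), pyruvate carrier and dehydrogenase (0.021), telomere capping (0.023), septins (0.0024), vesicle coats (0.0082) and splicing (0.0010). With no minimum the disaggregation median went from 2.01 to 1.40. With a minimum of 20 FPKM the seripauperin median went from -0.14 to 0.0066. In 250-base windows the shares over all promoters were 0.790% for the heat-shock element, 1.97% for the stress element, 2.27% for the Gcn4 site, 0.426% for the Rap1 site and 17.0% for PAC. There the Gcn4 site was in 38.5% of arginine promoters in place of 69.2%, and the stress element in 22.7% of general stress promoters in place of 56.8%. The pseudocount moved the 40 largest changes by at most 0.13. The cause of these shifts was not tested. Depth limits cannot be given, since no counts were used.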

Other observations

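Further lists of metal, phosphate, nitrogen and vitamin genes can be read against the 8.87% called higher and 15.6% called lower over all genes. Of 28 genes of the iron uptake regulon, 4 were called higher and 1 lower: FIT3, a cell wall mannoprotein that retains siderophores, went from 541 to 928 FPKM, and FRE1, a reductase, from 42.4 to 27.7 FPKM. Of 16 zinc and copper genes, 3 were called lower and 0 higher. The near-identical metallothionein genes CUP1-1 (8268 and 18330 FPKM) and CUP1-2 (8321 and 17862 FPKM) were not called. Of 23 phosphate genes, which include PHO89, 4 were called lower and 1 higher. PHO84, the high-affinity phosphate transporter, went from 76.2 to 41.1 FPKM and PHO4, the activator, from 47.8 to 32.3 FPKM, while PHM8, a phosphatase, rose from 114 to 389 FPKM. Of 17 nitrogen catabolite genes 7 were called lower, with MEP2, an ammonium permease, going from 126 to 65.5 FPKM and GAT1, an activator, from 72.4 to 50.8 FPKM. Of 18 thiamine genes, THI4 rose from 5.99 to 18.9 FPKM and THI7 fell from 123 to 61.2 FPKM. Of 21 mitochondrial genome transcripts 4 reached the minimum level, with 2 of these called higher, in libraries labelled polyA.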
